A study of Mus musculus with 3 samples.

Results

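The genes described here encode plasma proteins of blood clotting and of complement, measured in mouse liver. They were taken by symbol from a list of 40 genes, and all 40 were found among the 23850 rows of each table, 24 of them in coagulation and 16 in complement. Total RNA of liver, depleted of ribosomal RNA, was sequenced from mice aged 16 weeks on a mixed background of C57BL6J and FVB. There were 3 libraries, 1 per group: wildtype on the ad libitum diet (wt AL), Ercc1 delta/- on the same diet (Ercc1 AL), and Ercc1 delta/- on diet restriction (Ercc1 DR). The mutants carry 1 null and 1 delta allele of Ercc1, a DNA repair gene, in all tissues. The labels do not say how many animals a library holds, nor their sex. No restricted wild type was analysed here, so diet was compared only within the mutant. With 1 library per group a difference has no replicate check, and no p-value or SD was computed.

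Hepatocytes make most of the plasma clotting and complement proteins. Clotting runs through a chain of proteases, many of which need vitamin K, to thrombin, which turns fibrinogen into fibrin, and serpins and the protein C system hold it back. Complement is set off by antibody, by lectins that bind sugars on microbes, or directly on surfaces. All 3 routes meet at C3, and the terminal components then assemble a pore in the target membrane.

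Levels are given in FPKM, which counts fragments relative to transcript length and library size and so allows comparison between genes. A run of 3 values is in the order wt AL, Ercc1 AL, Ercc1 DR. Every member had an estimate with status OK in every library. Fgg was the highest member of each library (751, 708 and 1275 FPKM), and the lowest were F11 at 2.81 FPKM in wt AL, Masp1 at 6.64 in Ercc1 AL and Mbl1 at 7.05 in Ercc1 DR. The median coagulation gene stood at 36.7, 50.2 and 88.4 FPKM, and the median complement gene at 45.5, 58.0 and 42.0 FPKM. Among all rows with at least 1 FPKM the medians were 2.73, 3.08 and 4.21 FPKM. Of 10 hepatocyte markers, 8 had a value in every library, and they summed to 2638, 3897 and 8441 FPKM. Albumin had no estimate in any library, since its row is coded HIDATA. Ercc1 itself stood at 0.461, 0.573 and 0.475 FPKM before rescaling, below 1 FPKM in each library. This level over the whole gene was not used to tell the genotypes apart.

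The deposited interval of a member's FPKM reached between 0.356% and 12% of its midpoint to either side, with medians of 3.36%, 2.36% and 2.34%. It covers counting within 1 library and not the difference between animals, and the depth itself is not known from the tables. In 28, 33 and 34 of the 40 members the FPKM was not within the bounds deposited with it, and mostly above them. Ratios from interval midpoints gave the same counts of members past 2-fold.

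The libraries differed in their general level. Over 9109 rows that reached 1 FPKM in each library, the median log2 FPKM ratio was 0.49 for Ercc1 AL against wt AL, 0.33 for Ercc1 DR against Ercc1 AL and 0.78 for Ercc1 DR against wt AL. Log2 ratios below are of FPKM + 1 after dividing out these medians, unless called as deposited, and 3 in a row follow this order of comparisons. A gene was counted as higher or lower when it was past 2-fold on that scale.

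All 24 coagulation genes were highest in Ercc1 DR by FPKM, as the general level of the libraries was. After rescaling, 20 of 24 were above Ercc1 AL and 16 of 24 above wt AL in Ercc1 DR, 6 of the 16 by more than 2-fold. The median log2 ratios over all measured rows were -0.06 and -0.03, and over rows reaching 5 FPKM in either library 0.15 and 0.22. Past 2-fold higher against wt AL were 5.36% of all rows and 11.8% of those reaching 5 FPKM. By deposited FPKM, 22 of 24 were ordered wt AL, Ercc1 AL, Ercc1 DR from low to high, an order that 52.5% of the 12816 rows with at least 1 FPKM in any library also had. The other two, Fga and Fgg, were lowest in Ercc1 AL and highest in Ercc1 DR, as 4.34% of those rows were. The plot of coagulation levels by library shows both patterns.

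**Figure D1:**
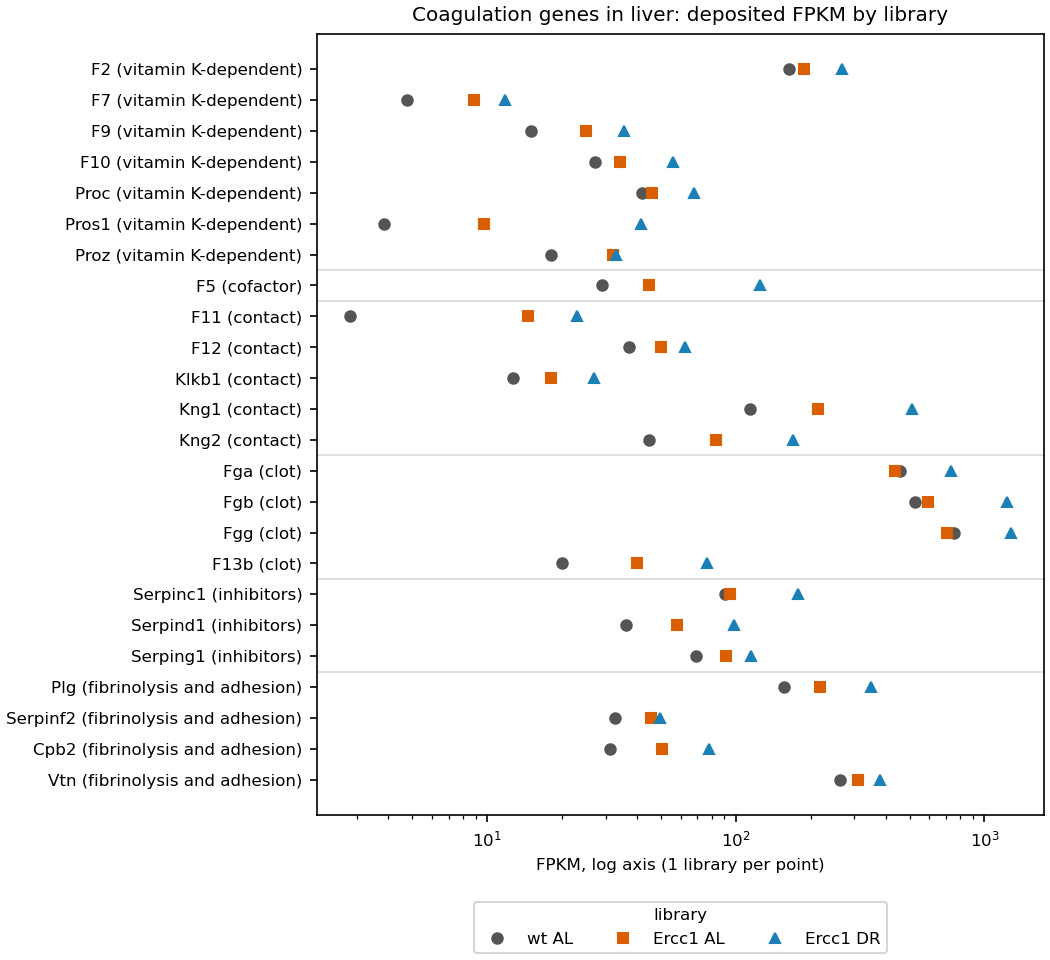
Deposited FPKM (log axis) of 24 coagulation genes, grouped by role, with 1 point per library (circle wt AL, square Ercc1 AL, triangle Ercc1 DR). The triangle lies rightmost in every row, and the widest spans between libraries are those of Pros1 and F11.

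Pros1 encodes protein S, the vitamin K-dependent cofactor of activated protein C, and lies on chromosome 16 from 62854334 to 62929340. It stood at 3.85 FPKM in wt AL (deposited interval 3.43 to 4.06), 9.68 in Ercc1 AL (8.83 to 9.78) and 41.6 in the restricted mutant (38.5 to 40.4). No interval overlapped another, as was so for most members in each comparison. The intervals are of FPKM before rescaling, and the share of all rows without overlap was not computed. The lack of overlap therefore does not set members apart from other genes. Ercc1 DR was 10.8 times the wild type by FPKM. The rescaled log2 ratio was 2.38 for Ercc1 DR against wt AL, 1.67 for Ercc1 DR against Ercc1 AL and 0.70 for Ercc1 AL against wt AL.

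Among the other vitamin K-dependent genes none passed 2-fold in any comparison. F2, which encodes prothrombin, stood at 164, 189 and 267 FPKM, the highest level of this group in each library. F7, the protease that starts clotting with tissue factor, was the lowest in the mutants, at 4.78, 8.83 and 11.8 FPKM. F9 (15.0, 24.9 and 35.5 FPKM) and F10 (27.3, 34.2 and 55.7 FPKM), which encode the proteases acting before prothrombin, had log2 ratios of 0.44 and 0.24 for Ercc1 DR against wt AL. Proc, the gene of protein C, which protein S assists, stood at 42.0, 45.8 and 68.0 FPKM and had a log2 ratio of -0.08 in that comparison. Proz, whose product guides a serpin to factor X, stood at 18.1, 32.2 and 33.1 FPKM, and its intervals in the mutant libraries overlapped. All of the 6 were highest in Ercc1 DR by FPKM.

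F5 encodes factor V, the cofactor that factor X needs to make thrombin and that the protein C system destroys. Its level was 29.0 FPKM in wt AL, 44.9 in Ercc1 AL and 125 in Ercc1 DR, with log2 ratios of 1.12 against Ercc1 AL and 1.29 against wt AL in the restricted mutant. The row Gm16548 overlaps F5 and stood at 0.723, 1.88 and 2.23 FPKM.

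In the contact system, which starts clotting on charged surfaces and releases bradykinin, F11 and the kininogens were past 2-fold and F12 and Klkb1 were within it. F11 encodes the protease that activates factor IX and lies on chromosome 8 from 45241170 to 45262031. It stood at 2.81 FPKM in wt AL (deposited interval 2.37 to 3.02), 14.6 in Ercc1 AL (12.9 to 14.3) and 23.0 in the restricted mutant (20.4 to 22.1). Both mutant libraries were far above the wild type, with log2 ratios of 1.58 in Ercc1 AL and 1.92 in Ercc1 DR, and they were closer to each other (0.30). F11 was the one coagulation gene past 2-fold in Ercc1 AL against wt AL. Its neighbour Klkb1, the prekallikrein gene, lies 7419 bases from it and stood at 12.7, 18 and 27.0 FPKM. The log2 ratios of Klkb1 were 0.02, 0.24 and 0.29 for Ercc1 AL against wt AL, Ercc1 DR against Ercc1 AL and Ercc1 DR against wt AL. Klkb1 was 4.51 times F11 by FPKM in wt AL and 1.24 and 1.18 times F11 in the mutants.

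Kng1 and Kng2 encode kininogens, the source of bradykinin. Kng1 stood at 114, 213 and 509.8 FPKM, and Kng2 at 44.8, 83.3 and 169 FPKM. Their log2 ratios for Ercc1 DR against wt AL were 1.37 and 1.12, and for Ercc1 AL against wt AL 0.40 in both. The genes are close copies, 29198 bases apart, so reads could be split between them and single values are uncertain. F12, which encodes the surface-activated protease, stood at 37.3, 49.8 and 62.7 FPKM, with log2 ratios of -0.07 in Ercc1 AL and -0.03 in Ercc1 DR against wt AL.

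The sequences just before the starts of F11 and Pros1 are shown because these members had the highest coagulation ratios for Ercc1 DR against wt AL. They are the 250 bases upstream of the start in RefSeq (build GRCm38.p6), 5′ to 3′ on the gene's strand, chr8:45262032-45262281 on the minus strand and chr16:62854057-62854306 on the plus strand. RefSeq had such a sequence for 31 of the 40 members. The Pros1 start there lies 27 bases from the start in the deposited tables. Capitals mark matches on either strand to GTTAAT (the core of an HNF1 site), TTGNNNCAA (C/EBP), TTCNNNGAA (STAT) and CAAAGTCCA (HNF4 type), and on the sense strand to TATAAA.
F11: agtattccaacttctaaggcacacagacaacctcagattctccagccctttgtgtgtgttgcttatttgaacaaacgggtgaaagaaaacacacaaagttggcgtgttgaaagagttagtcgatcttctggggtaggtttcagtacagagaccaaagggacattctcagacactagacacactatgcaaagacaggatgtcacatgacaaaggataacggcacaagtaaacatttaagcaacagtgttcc
Pros1: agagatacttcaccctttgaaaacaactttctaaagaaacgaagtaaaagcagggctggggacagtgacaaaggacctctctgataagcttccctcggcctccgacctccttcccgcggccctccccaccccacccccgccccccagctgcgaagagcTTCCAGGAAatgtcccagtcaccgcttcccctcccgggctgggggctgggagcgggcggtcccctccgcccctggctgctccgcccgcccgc
F11 held none of these motifs in the window, and Pros1 held 1 STAT match from base -92 to base -84 before its start. Of 32 member promoters (C8g has 2), 9 held the HNF1 core, 28.1%, beside 6.43% of all 32851 promoters of that length. The shares were 12.5% against 5.02% for C/EBP, 18.75% against 7.02% for STAT and 6.25% against 7.59% for the TATA motif, and the HNF4 type motif was in no member promoter and in 0.384% of all. A match is a run of letters and was not tested for binding.

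Fibrinogen is built from 3 chains in equal number, whose genes lie side by side on chromosome 3. Fga stood at 458 FPKM in wt AL, 436 in Ercc1 AL and 735 in Ercc1 DR. Fgb stood at 527, 593 and 1238 FPKM, and Fgg at 751, 708 and 1275 FPKM. In the freely fed mutant all 3 chains lay below the median shift, with log2 ratios of -0.56, -0.32 and -0.58 against wt AL. In the restricted mutant they stood at -0.10, 0.45 and -0.02 against wt AL, within 2-fold. The ratio of Fgb to Fga by FPKM was 1.15, 1.36 and 1.68, while that of Fgg to Fga was 1.64, 1.63 and 1.73. F13b, which encodes the carrier subunit of the fibrin crosslinking enzyme factor XIII, stood at 19.9, 40.2 and 76.5 FPKM and was past 2-fold for Ercc1 DR against wt AL (log2 ratio 1.12).

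The 3 serpin inhibitors of the clotting proteases were within 2-fold in every comparison. Serpinc1, the antithrombin gene, stood at 90.7, 95.2 and 179 FPKM, and Serpind1, the gene of the thrombin inhibitor heparin cofactor II, at 36.1, 58.3 and 98.5 FPKM. Serpind1 overlaps Pi4ka (1.97, 1.96 and 4.96 FPKM), and without known strand use their reads cannot be told apart. Serping1, whose product inhibits C1 proteases and the contact proteases, stood at 69.1, 90.9 and 115 FPKM, with log2 ratios of -0.09, 0.01 and -0.04.

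Genes of clot breakdown were also within 2-fold. Plg, which encodes plasminogen, stood at 156, 218 and 348 FPKM. Serpinf2, the gene of the plasmin inhibitor, stood at 32.8, 45.5 and 49.6 FPKM, and Cpb2, whose product slows fibrin breakdown, at 31.2, 50.5 and 78.4 FPKM. The row Mir466f-3 overlaps Cpb2 and stood at 0.692, 33.7 and 23.5 FPKM. Vtn, the gene of the adhesive protein vitronectin, stood at 263, 309 and 379 FPKM, and its log2 ratio for Ercc1 DR against wt AL, -0.25, was the lowest of the 24. The coagulation genes reached further above 0 than below it.

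Against the background, coagulation genes past 2-fold numbered 1 of 24 higher in Ercc1 AL against wt AL (4.17%), where 2.23% of 12359 measured rows were. In Ercc1 DR against Ercc1 AL they numbered 2 (8.33%, Pros1 and F5), beside 2.99% of all. For Ercc1 DR against wt AL there were 6 (25.0%: Pros1, F11, Kng1, F5, Kng2 and F13b), beside 5.36% of all. None was lower in any comparison, where 4.51%, 11.4% and 14.4% of rows were, in the same order of comparisons. Their median log2 ratios were 0.00, 0.32 and 0.33, beside 0.01, -0.06 and -0.03 over all rows. All 24 reach 5 FPKM in every comparison, and among rows that do so the shares higher were 5.77%, 6.53% and 11.8%, the shares lower 8.71%, 19.7% and 20.3% and the medians 0.05, 0.15 and 0.22. Against those rows the counts of 1 and 2 higher were near the background in the first pair of comparisons. The 8 hepatocyte markers had medians of 0.17, 0.58 and 0.65, above those of the coagulation genes. Of these markers Cps1 (1.6 and 1.87) was past 2-fold in Ercc1 DR against both other libraries, Ttr (1.07) against Ercc1 AL and Cyp2e1 (1.77) against wt AL, and the part of a general hepatocyte shift in the coagulation ratios was not tested. As deposited the counts were 2, 5 and 14 higher and none lower, with 5.80%, 6.50% and 24.0% of all rows higher and 2.20%, 8.71% and 8.63% lower. The 3 comparisons share libraries, so their counts are not independent of each other.

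Complement genes did not go one way. The terminal components C6, C8a, C8b and C9, the lectin Mbl1 and C4b were more than 2-fold lower in Ercc1 DR than in Ercc1 AL, while C3 was just past 2-fold higher. By deposited FPKM, 8 of 16 had the order wt AL, Ercc1 AL, Ercc1 DR from low to high and the other 8 were highest in Ercc1 AL. Of those 8, C4bp, Mbl1, C6, C4b and C8a were lowest in Ercc1 DR, an order that 15.2% of measured rows had, and C9, Mbl2 and C8b lowest in wt AL, as 13.7% of rows were.

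**Figure D2:**
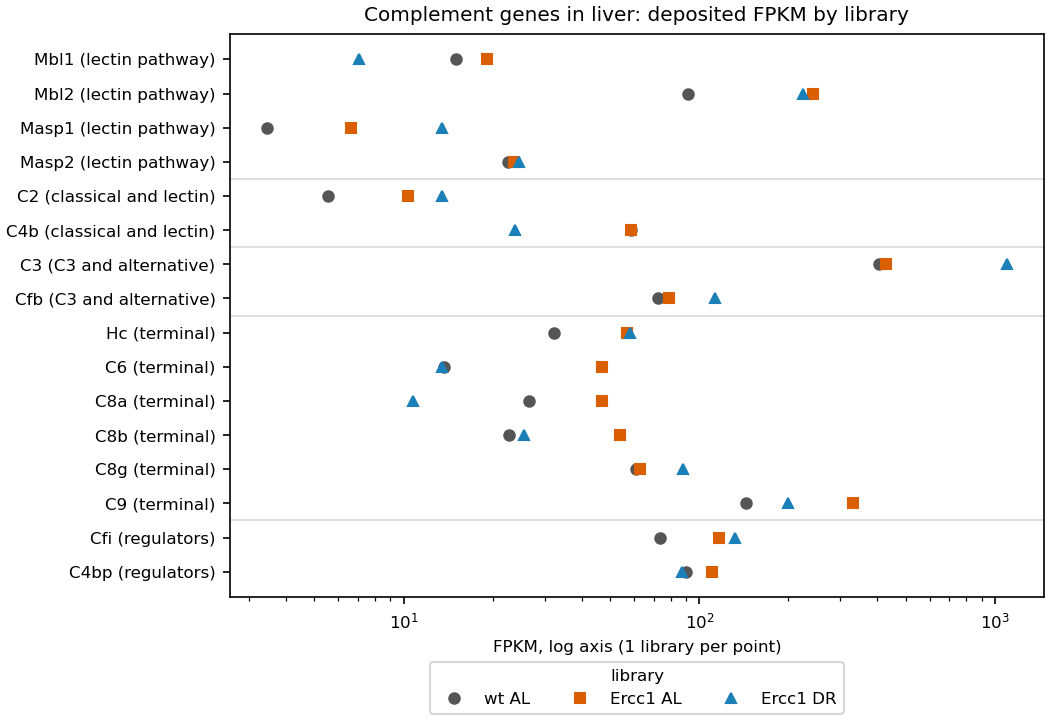
Deposited FPKM (log axis) of 16 complement genes, grouped by role, with 1 point per library (circle wt AL, square Ercc1 AL, triangle Ercc1 DR). For C6, C8a, C8b and C9 the square is rightmost, and for C8a the triangle, at 10.8 FPKM, is leftmost.

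Terminal components form the membrane attack complex. C6 lies on chromosome 15 from 4727210 to 4804045 and its product binds cleaved C5 first. It stood at 13.7 FPKM in wt AL (deposited interval 12.4 to 13.7), 46.7 in Ercc1 AL (42.8 to 44.8) and 13.5 in the restricted mutant (12.2 to 13.3). The freely fed mutant stood apart, with a log2 ratio of 1.22 against wt AL, and Ercc1 DR was at -2.02 against it. The intervals of wt AL and Ercc1 DR overlapped, and after rescaling their log2 ratio was -0.73. C6 was the one complement gene past 2-fold in Ercc1 AL against wt AL.

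C8a and C8b encode the alpha and beta chains of C8 and lie 11131 bases apart on chromosome 4, C8a from 104815680 to 104876398 and C8b from 104766317 to 104804548. C8a stood at 26.5 FPKM in wt AL (deposited interval 24.6 to 26.0), 47.0 in Ercc1 AL (43.8 to 45.7) and 10.8 in the restricted mutant (9.92 to 10.8). It was lowest in the restricted mutant, at log2 ratios of -2.33 against Ercc1 AL and -1.92 against wt AL. Its intervals did not overlap, as those of most members did not. C8b stood at 22.7, 54.0 and 25.6 FPKM, with log2 ratios of -1.37 and -0.58 in the same comparisons. C8g, the gene of the gamma chain, on chromosome 2, was instead highest in Ercc1 DR, at 61.1, 63.2 and 88.3 FPKM, with log2 ratios of 0.15 and -0.25. One C8 molecule holds 1 chain of each kind, and the FPKM of C8g over that of C8a was 2.31 in wt AL, 1.34 in Ercc1 AL and 8.18 in Ercc1 DR. C8g overlaps Fbxw5 (1.28, 2.27 and 3.53 FPKM), and its value may include reads of that gene.

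C9, whose product polymerises into the pore, was the most abundant terminal gene, at 144 FPKM in wt AL, 332 in Ercc1 AL and 199.8 in Ercc1 DR. Its log2 ratios were 0.70 for Ercc1 AL against wt AL, -1.06 for Ercc1 DR against Ercc1 AL and -0.31 for Ercc1 DR against wt AL. As deposited the second of these was -0.73, which is not past 2-fold. Hc encodes complement component 5. FVB mice are known to carry a deficiency allele of Hc with a frameshift and C57BL6J mice an intact one, and the labels do not give the Hc alleles of these animals. Hc stood at 32.3, 57.0 and 58.4 FPKM, with overlapping intervals in the mutants and log2 ratios of 0.32, -0.29 and 0.07, and a value summed over the gene does not separate the alleles.

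The sequences before the starts of the 4 terminal genes that were past 2-fold lower in Ercc1 DR against Ercc1 AL are shown, since these members had the same direction in that comparison. They are again the 250 bases upstream in RefSeq (GRCm38.p6), with matches to the motifs given above in capitals. C6 is chr15:4726960-4727209, C9 is chr15:6445096-6445345 and C8b is chr4:104766067-104766316, all on the plus strand, and C8a is chr4:104876399-104876648 on the minus strand. The C9 start lies 13 bases from that of the deposited tables, and the other 3 starts are the same.
C6: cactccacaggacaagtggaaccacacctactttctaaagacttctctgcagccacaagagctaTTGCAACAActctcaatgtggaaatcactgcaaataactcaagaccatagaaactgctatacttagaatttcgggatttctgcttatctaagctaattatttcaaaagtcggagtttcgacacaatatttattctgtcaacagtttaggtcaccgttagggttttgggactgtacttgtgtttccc
C9: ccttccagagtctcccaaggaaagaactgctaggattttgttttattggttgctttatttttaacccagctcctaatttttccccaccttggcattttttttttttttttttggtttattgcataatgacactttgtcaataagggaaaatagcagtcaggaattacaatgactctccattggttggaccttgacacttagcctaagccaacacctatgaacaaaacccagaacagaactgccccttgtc
C8a: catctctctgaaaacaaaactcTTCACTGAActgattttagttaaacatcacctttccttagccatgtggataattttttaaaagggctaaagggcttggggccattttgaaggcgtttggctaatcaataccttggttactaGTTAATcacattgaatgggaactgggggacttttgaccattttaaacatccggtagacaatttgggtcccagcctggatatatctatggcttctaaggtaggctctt
C8b: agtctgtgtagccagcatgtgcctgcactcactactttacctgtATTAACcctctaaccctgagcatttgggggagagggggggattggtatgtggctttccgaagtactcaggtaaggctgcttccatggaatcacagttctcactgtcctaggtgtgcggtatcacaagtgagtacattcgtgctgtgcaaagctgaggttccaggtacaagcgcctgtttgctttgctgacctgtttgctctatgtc
C6 held 1 C/EBP match, from -186 to -178. C8a held a STAT match from -228 to -220 and an HNF1 core from -107 to -102. C8b held an HNF1 core from -206 to -201, on the other strand. C9 held none. No searched motif was in all 4 windows, and the GC content was 40%, 38.8%, 40% and 50.4% for C6, C9, C8a and C8b.

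In the lectin pathway, the mannose-binding lectins Mbl1 and Mbl2, which recognise microbial sugars, differed from each other. Mbl1 stood at 15.0 FPKM in wt AL (deposited interval 11.1 to 13.2), 19.1 in Ercc1 AL (14.3 to 16.5) and 7.05 in the restricted mutant (5.11 to 6.49). Its log2 ratios were -1.61 for Ercc1 DR against Ercc1 AL and -1.65 for Ercc1 DR against wt AL. Mbl2 stood at 91.7, 243 and 223 FPKM, high in both mutants, with log2 ratios of 0.91, -0.45 and 0.50. Mbl2 over Mbl1 by FPKM was 6.11, 12.7 and 31.7. Masp1 and Masp2 encode the proteases carried by these lectins. Masp1 stood at 3.46, 6.64 and 13.5 FPKM and came to a log2 ratio of 0.99 for Ercc1 DR against wt AL, just inside 2-fold. Masp2 stood at 22.6, 23.7 and 24.6 FPKM with overlapping intervals throughout, and it overlaps Tardbp (6.43, 9.44 and 10.5 FPKM), so its value may include reads of that gene.

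C2 and C4b form the enzyme that cuts C3 in the classical and lectin routes. C4b stood at 58.8 FPKM in wt AL, 59.0 in Ercc1 AL and 23.9 in Ercc1 DR, with log2 ratios of -1.59 against Ercc1 AL and -2.01 against wt AL in the restricted mutant. Its near-identical copy C4a stood at 23.8, 19.8 and 6.33 FPKM, with -1.79 and -2.40, and how the reads were shared between the copies is not known. C2, by contrast, stood at 5.58, 10.3 and 13.5 FPKM, with log2 ratios of 0.05 and 0.43. Cfb, the alternative route's counterpart of C2, lies 87 bases from it on chromosome 17 and stood at 72.7, 79.0 and 113 FPKM. C3, on chromosome 17 from 57203973 to 57228136, stood at 404 FPKM in wt AL (387 to 392), 428 in Ercc1 AL (410.04 to 414) and 1094 in the restricted mutant (1049 to 1057). Its log2 ratio was 1.02 for Ercc1 DR against Ercc1 AL and 0.65 for Ercc1 DR against wt AL, so C3 and C4b went apart in the restricted mutant. Scaled to the summed FPKM of less abundant genes, the first ratio was 0.96.

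The regulators Cfi, the protease that cuts C3b and C4b, and C4bp, its cofactor, were within 2-fold. Cfi stood at 73.4, 116 and 132 FPKM. C4bp stood at 90.4, 110.4 and 87.2 FPKM, and its log2 ratio for Ercc1 DR against wt AL was -0.82.

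**Figure D3:**
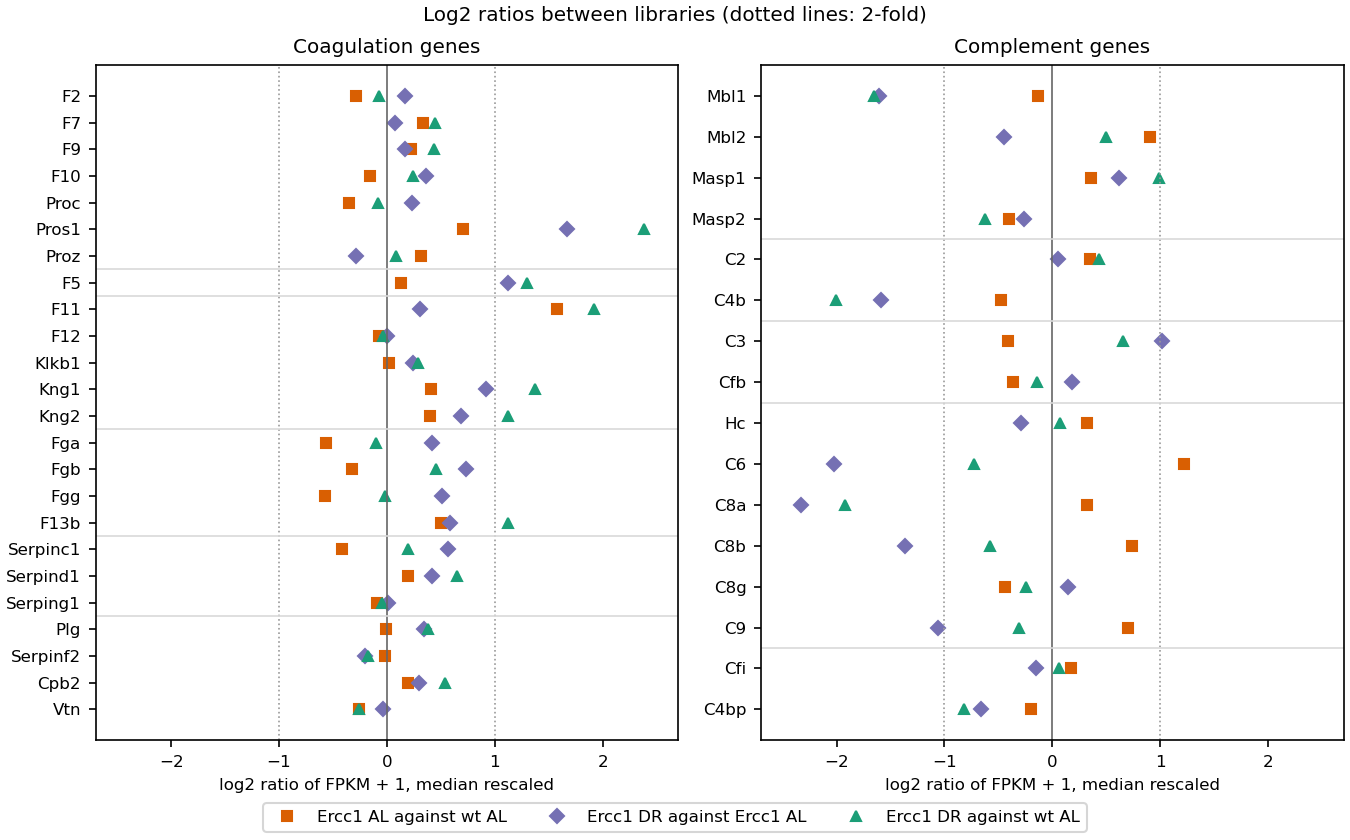
Log2 ratios of FPKM + 1 after median rescaling, 24 coagulation genes on the left and 16 complement genes on the right, with 3 comparisons per gene and dotted lines at 2-fold. Coagulation points past 2-fold all lie to the right, as Pros1 at 2.38, and complement points past the left line include C8a at -2.33 and C6 at -2.02.

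Complement genes past 2-fold numbered 1 of 16 higher (6.25%) and none lower in Ercc1 AL against wt AL, beside 2.23% and 4.51% of all rows. Of rows that reach 5 FPKM, as all 16 members do, 5.77% were higher and 8.71% lower, so the share higher was near the background. In Ercc1 DR against Ercc1 AL, 6 were lower (37.5%: Mbl1, C4b, C6, C8a, C8b and C9), beside 11.4% of all rows or 19.7% of those that reach 5 FPKM. There, 1 (C3) was higher (6.25%), beside 2.99% of all rows and near the 6.53% of those reaching 5 FPKM. For Ercc1 DR against wt AL, 3 were lower (18.75%: Mbl1, C4b and C8a), near the 14.4% of all rows and the 20.3% of those reaching 5 FPKM. None was higher, beside 5.36% of all rows and 11.8% of those reaching 5 FPKM. Their median log2 ratios in the 3 comparisons were 0.24, -0.37 and -0.28. As deposited they were 0.72, -0.04 and 0.50, so the last turned sign, beside 0.34, 0.17 and 0.50 over all rows. With Serping1 and Vtn counted as complement the first was 0.04. As deposited the counts were 4, 1 and 4 higher, beside 5.80%, 6.50% and 24.0% of all rows, and 0, 5 and 2 lower, beside 2.20%, 8.71% and 8.63%. The last 4 higher are 25.0% of the members, a share near the background. Ercc1 AL, in which C6, C8a, C8b and C9 were highest, is a side of both of the first comparisons, so the high value of that library enters each.

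**Figure D4:**
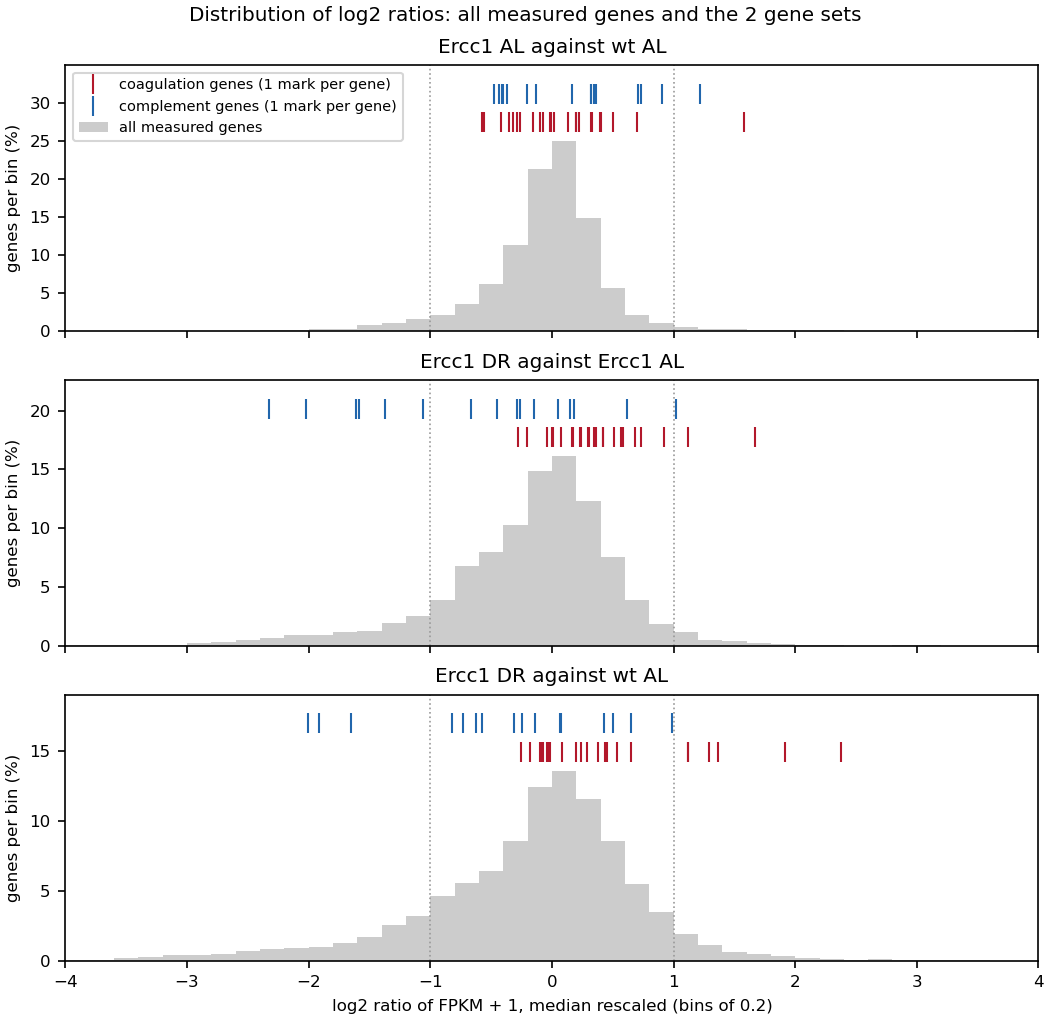
Percentage of measured rows per bin of log2 ratio (grey bars, bins of 0.2) for each of the 3 comparisons, with 1 mark per coagulation gene (red) and per complement gene (blue) drawn above, and dotted lines at 2-fold. In Ercc1 DR against Ercc1 AL the coagulation marks run from -0.28 to 1.67 and the complement marks from -2.33 to 1.02.

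Genes of the cascades outside the 40 members came from 2 further lists. Of 33 coagulation genes, 21 or 22 were measured per comparison, and Hrg was the one past 2-fold higher after rescaling. In Ercc1 DR against Ercc1 AL this was 1 of 22, beside 2.99% of all rows. For Ercc1 DR against wt AL it was 1 of 21, near the 5.36% of all rows. As deposited, 6 of 21 were past 2-fold higher for Ercc1 DR against wt AL, beside 24.0% of all rows. Hrg encodes histidine-rich glycoprotein, which binds plasminogen and heparin, and stood at 65.2, 127 and 467 FPKM, with log2 ratios of 0.46, 1.54 and 2.04. For Ercc1 DR against wt AL, 4 of 21 were lower, beside 14.4% of all rows. They were the endothelial genes F8 (4.83, 6.10 and 2.56 FPKM) and Procr (1.68, 1.5 and 0.346 FPKM), F13a1 of macrophages and platelets (11.3, 11.4 and 8.28 FPKM), and Ggcx (11.5, 14.1 and 8.74 FPKM). Ggcx encodes the carboxylase that all vitamin K-dependent clotting proteins need, and its log2 ratio was -1.04 there and -0.93 against Ercc1 AL. In Ercc1 DR against Ercc1 AL, F8 (log2 ratio -1.23) was the one of 22 past 2-fold lower, beside 11.4% of all rows. In Ercc1 AL against wt AL none of 21 was past 2-fold either way. As deposited, none of these genes was 2-fold lower.

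Of 37 further complement genes, 35 were in the tables and 28 or 29 measured per comparison. None was past 2-fold higher after rescaling, beside 2.23%, 2.99% and 5.36% of all rows in the 3 comparisons. As deposited, 7 of 28 were for Ercc1 DR against wt AL, near the 24.0% of all rows. In Ercc1 DR against wt AL 2 of 28 were lower, beside 14.4% of all rows. They were C4a, given above, and C5ar1, the receptor for the C5 fragment, at 5.87, 2.46 and 0.904 FPKM (log2 ratio -2.17). C5ar1 was also past 2-fold lower in Ercc1 AL against wt AL (-1.32) and in Ercc1 DR against Ercc1 AL (-1.01), but not as deposited (-0.99 and -0.86). The subunits of C1q, which in liver come from Kupffer cells, stood at 2.90, 4.72 and 2.38 FPKM for C1qa, 4.19, 5.70 and 3.09 FPKM for C1qb and 3.04, 3.84 and 2.48 FPKM for C1qc.

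Most endothelial markers were low in the same library as F8 and Procr. Lyve1 (1.05, 0.985 and 1.54 FPKM, log2 ratio -0.11 for Ercc1 DR against wt AL) was not. In the further coagulation list, the endothelial genes Thbd (0.865, 1.05 and 1.79 FPKM, log2 ratio 0.13) and Vwf (0.455, 0.543 and 0.834 FPKM) were not low there either. The 10 endothelial markers summed to 49.6, 43.6 and 21.5 FPKM. For Ercc1 DR against wt AL, 6 of 10 (Stab2, Clec4g, Kdr, Gpr182, Ehd3 and Oit3) were past 2-fold lower, beside 14.4% of all rows. As deposited 2 of 10 were, beside 8.63%. In Ercc1 AL against wt AL 1 of 10 was lower (Gpr182, -1.28, or -0.88 as deposited), beside 4.51% of all rows. In Ercc1 DR against Ercc1 AL 2 of 10 were (Gpr182 and Oit3), beside 11.4%. The 9 Kupffer cell markers summed to 20.3, 27.6 and 18.6 FPKM. For Ercc1 DR against wt AL 1 of 6 measured (Marco) was past 2-fold lower. Stellate cell markers summed to 27.4, 42.5 and 45.8 FPKM and cholangiocyte markers to 3.47, 2.15 and 2.09 FPKM. Ecm1 of the first list (-1.14) and Krt7 of the second (-1.56) were past 2-fold lower for Ercc1 DR against wt AL. In Ercc1 AL against wt AL Krt7, the 1 cholangiocyte marker measured, was past 2-fold lower too (-1.10). The sums hide mixed directions. Dcn (13.5, 24.5 and 30.8 FPKM) was the largest part of the stellate sum, while Reln, Des, Ecm1 and Hhip were lowest in Ercc1 DR. Krt7 (2.37, 0.807 and 0.242 FPKM) fell, while Sox9 (0.553, 0.582 and 1.05 FPKM) was highest in Ercc1 DR by FPKM. After rescaling the log2 ratio of Sox9 was 0.05 for Ercc1 DR against wt AL. Krt19 and Epcam stayed below 1 FPKM with overlapping intervals in the 3 libraries. No endothelial or Kupffer marker was listed at 0 in any library. Fewer cells of a type and less RNA per cell cannot be told apart in bulk tissue, and the part of either in the values of F8, Procr, F13a1, C1q and C5ar1 was not tested.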

How the data were processed

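Liver RNA was measured in 3 libraries, 1 for each group, assigned by their titles. The deposited values are FPKM with a lower and an upper bound and a status code, per the file headers, and the submitters' processing notes name the build mm10. The aligner, the counting tool, the annotation and the use of strand were not given in the sources used here. Rows coded HIDATA (59, 91 and 55 in wt AL, in Ercc1 AL and in Ercc1 DR) or FAIL (3, 5 and 1) were treated as missing. Starts were raised by 1 base, after which 55.8% equal RefSeq starts against 3.29% before.

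From these, log2 ratios of FPKM + 1 were computed over all rows with at least 1 FPKM in either library, after dividing 1 library by the median ratio over the 9109 rows with at least 1 FPKM in all. The rescaling was checked on simulated data with a known shift and 200 changed genes, as many raised as lowered. In the libraries more rows were past 2-fold lower than higher after rescaling, a setting that the simulation did not cover. Of repeated symbols (494 rows) the row with the highest mean was used for lists. Tools were Python 3.11.15, pandas 2.3.3, numpy 2.4.6 and matplotlib 3.10.9. Promoters came from RefSeq (GRCm38.p6).

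The members, their roles and the further lists were chosen with earlier results of these data known. All 40 members are named, and of the further coagulation, complement, regulator and marker lists every gene past 2-fold after rescaling in any comparison. The other genes named, C1qa, C1qb, C1qc, Thbd, Vwf, Hnf4a, Stat3, Cebpb and some markers, were chosen after their values were seen. Alternatives covered scaling, pseudocount, minimum level (5 FPKM, which raises the share of all rows past 2-fold), interval midpoints, repeated symbols and the placing of Serping1 and Vtn.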

Additional observations from a re-analysis of the deposited data

How the results depend on the processing

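With 1 library per group, no replicate could be left out. No paired analysis was possible because each group has 1 library and the labels give no replicate numbers. The 12 counts of members past 2-fold were recomputed under 10 alternatives, and 111 of 120 values stayed within 1.5 times. Some alternatives could not change a count, so part of this steadiness was fixed in advance. Every member reaches 5 FPKM in each comparison, so raising or dropping the minimum level had no effect on them. Serping1 and Vtn were within 2-fold throughout, so moving them between the lists had none either. Without rescaling, coagulation genes higher numbered 2 in Ercc1 AL against wt AL, 5 in Ercc1 DR against Ercc1 AL and 14 in Ercc1 DR against wt AL, and complement genes higher numbered 4 in Ercc1 AL against wt AL and 4 in Ercc1 DR against wt AL. Scaled to the FPKM sum without small RNA genes and the 100 most abundant genes, complement genes higher numbered 2 in Ercc1 AL against wt AL, 0 in Ercc1 DR against Ercc1 AL and 1 in Ercc1 DR against wt AL. With a pseudocount of 0.1, complement genes higher in Ercc1 DR against wt AL numbered 1. With a minimum of 5 FPKM no count of members changed, and the share of rows higher in Ercc1 DR against wt AL was 11.8% in place of 5.36%. No member past 2-fold changed sign under any of the 10. Of those past 2-fold, Mbl1 in Ercc1 DR against wt AL (-0.99) and C9 in Ercc1 DR against Ercc1 AL (-0.73) fell short as deposited, and C3 in Ercc1 DR against Ercc1 AL (0.96) under the sum scaling. Taking the shift off after the pseudocount, an alternative added after the data were seen, raised the share of all rows lower in Ercc1 DR against wt AL from 14.4% to 22.8% and changed no member's call. Intervals describe 1 library each, so no value here bears on differences between animals.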

Other observations

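Transcription factors and signalling genes that act on hepatocyte secretory genes were listed as well, 19 in all and all measured. Runs of 3 values are for wt AL, Ercc1 AL, then Ercc1 DR. Foxa2, a liver forkhead factor, was the one past 2-fold lower in the freely fed mutant, at 5.0 FPKM in wt AL, 2.05 in Ercc1 AL and 8.77 in Ercc1 DR. The log2 ratios of Foxa2 were -1.29 for Ercc1 AL against wt AL and 1.38 for Ercc1 DR against Ercc1 AL, and the first was -0.98 as deposited. Bcl6, a repressor, was lowest in the restricted mutant, at 5.01, 5.56 and 1.35 FPKM, with log2 ratios of -1.67 and -1.75 for Ercc1 DR against Ercc1 AL and wt AL. The other 17 were within 2-fold in the 3 comparisons after rescaling. Those lower were 1 of 19 in Ercc1 AL against wt AL, beside 4.51% of all rows. In Ercc1 DR 1 of 19 was lower against Ercc1 AL, beside 11.4%, and 1 of 19 against wt AL, beside 14.4%. The 1 of 19 higher in Ercc1 DR against Ercc1 AL stood beside 2.99% of all rows. As deposited, 5 of 19 were past 2-fold higher for Ercc1 DR against wt AL, near the 24.0% of all rows. Hnf4a, a master regulator of hepatocyte genes, stood at 23.7, 38.6 and 66.2 FPKM, and Stat3, which carries the interleukin signal to fibrinogen genes, at 9.05, 10.7 and 18.4 FPKM. Cebpb stood at 14.4, 17.1 and 14.6 FPKM.

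Among 9 megakaryocyte and platelet markers, Gp5 stood at 8.63, 15.7 and 46.9 FPKM from wt AL to the freely fed and then the restricted mutant, a log2 ratio of 1.55 for Ercc1 DR against wt AL. Of the other 8, Gp1ba stood at 3.36, 3.77 and 2.09 FPKM and the remaining 7 were at or below 1.04 FPKM in every library, with Pf4, the platelet chemokine, at 0.432, 0.802 and 0.580 FPKM. Of the 9, 3 were measured in Ercc1 DR against Ercc1 AL and 2 in Ercc1 DR against wt AL. Of these, Gp5 was the one past 2-fold after rescaling, where 2.99% and 5.36% of all rows were higher. Gp1ba had log2 ratios of -0.84 and -0.98 there, and Gp6 -0.60 in the first.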
